A study of Mus musculus with 4 samples.

Results

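Of the 32285 genes counted in single cells of mouse pancreatic islets, 38 genes of pre-messenger RNA splicing and of nuclear speckles were followed from cell type to cell type. They were taken by name: 10 SR proteins, 2 Tra2 proteins, 4 CLK kinases, 8 speckle scaffold and SR-related proteins, 8 hnRNPs, 3 branch-site and 3′ splice-site factors, and the DBHS proteins Sfpq and Nono with the helicase Ddx5. All 38 were found in the gene table. The comparison is between 2 libraries of dissociated islets of C57BL/6 mice, both treated with the dioxin TCDD, 1 from wild type mice and 1 from mice labelled Malat1-/-. TCDD is a ligand of the aryl hydrocarbon receptor, and its dose and duration are not given in the sources used here. The 4 samples of the series also include a DMSO-treated library of each genotype, which were not analysed here, so nothing below measures an effect of TCDD. The labels state neither the number of mice behind a library nor their age, nor how the Malat1 allele was disrupted. They call the cells beta cells, while the islets were isolated with collagenase, cultured in RPMI medium with serum and dissociated with Accutase, with no sorting step described.

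Nuclear speckles are bodies in the nucleus in which splicing factors are stored and from which they reach sites of transcription. SR proteins carry RNA-binding domains and a tail rich in arginine and serine, and they help to define exons; CLK and SRPK kinases phosphorylate that tail and so release SR proteins from speckles, and many hnRNPs counter SR proteins at the same exons. Malat1 is an abundant long noncoding RNA retained in speckles, where it is known to associate with SR proteins. Many splicing factors limit their own amount by including a poison exon or keeping an intron, which sends the transcript to decay or holds it in the nucleus.

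With 1 library per genotype there is no replicate and no test between genotypes. Levels are UMIs per 1000000 UMIs of the class (CPM), where a UMI marks 1 captured RNA molecule, scaled between the libraries within a cell class by TMM, which sets aside the most extreme genes. The intervals are 95% exact intervals, Poisson for levels and conditional binomial for ratios, and they cover counting error only, not the spread between animals. A gene counted as measured in a class at 20 CPM or more in 1 library and 50 UMIs or more over both. It counted as past 1.5-fold when its ratio, Malat1-null over wild type, lay beyond 1.5-fold and its whole interval was at least 25% above 1, or as far below on the log scale. The counts come from the 3′ ends of polyadenylated RNA, so they do not tell a transcript with a poison exon or a retained intron from the coding transcript of the same gene. In GENCODE M21, 33 of the 38 genes have an annotated transcript subject to nonsense-mediated decay, 33 have one with a retained intron, and 35 have one or the other.

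The libraries held 81872519 UMIs (wild type) and 134950186 UMIs (Malat1-null), of which 2166 and 3198 barcodes with at least 1000 UMIs were kept before doublet calls, and these sets had 1 barcode in common where 1.02 would be shared by chance. Malat1 itself checked the labels: beta-like cells gave 554931 Malat1 UMIs in the wild type library and 26 in the Malat1-null library, 8982 CPM against 0.294 CPM. Clusters made without the 38 genes were named from marker lists. The beta-like class held 910 wild type and 1754 Malat1-null barcodes, and all 10 beta cell markers were detected in both libraries. The named beta-like clusters covered 42.5% and 55.0% of the barcodes left after doublet calls. The others included alpha-, delta-, endothelial-, T- or NK-, B-cell- and acinar-like cells, and unnamed clusters of which some scored best for beta cell markers. A rule on insulin share and the markers of other classes, without clusters, took 982 and 2460 barcodes as beta-like. Insulin transcripts took 51.8% of the UMIs of wild type and 58.9% of those of Malat1-null beta-like cells, and the 38 genes took 0.392% and 0.389%. Mitochondrial transcripts took 1.21% in both.

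The sequences of the 100 bases upstream of the start site are shown for both Tra2 genes, a paralogous pair with ratios on either side of 1, and for 4 members near the upper and lower ends of the ratios below. They are RefSeq sequences of build GRCm38.p6, written 5′ to 3′ on the strand of the gene. Capitals mark the GC box GGGCGG, the box known as CCAAT, the letters CCGGAAG bound by ETS factors, the TATA box TATAAA, the full CRE TGACGTCA or the heat-shock-type pair GAANNTTC, or their reverse complements.

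Tra2b, chr16:22266006-22266105, minus strand: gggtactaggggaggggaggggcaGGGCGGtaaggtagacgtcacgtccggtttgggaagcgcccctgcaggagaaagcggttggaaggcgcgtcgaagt

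Tra2a, chr6:49264053-49264152, minus strand: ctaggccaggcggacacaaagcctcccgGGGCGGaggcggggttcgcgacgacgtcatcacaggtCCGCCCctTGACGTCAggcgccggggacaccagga

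Hnrnpa1, chr15:103240297-103240396, plus strand: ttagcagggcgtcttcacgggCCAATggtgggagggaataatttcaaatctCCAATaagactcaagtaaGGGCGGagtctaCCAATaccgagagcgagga

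Srsf5, chr12:80945399-80945498, plus strand: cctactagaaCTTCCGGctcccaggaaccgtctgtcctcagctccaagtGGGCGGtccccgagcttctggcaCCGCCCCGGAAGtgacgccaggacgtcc

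Srsf7, chr17:80207306-80207405, minus strand: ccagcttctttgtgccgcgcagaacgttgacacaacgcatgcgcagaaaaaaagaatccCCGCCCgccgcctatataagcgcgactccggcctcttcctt

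Luc7l3, chr11:94321964-94322063, minus strand: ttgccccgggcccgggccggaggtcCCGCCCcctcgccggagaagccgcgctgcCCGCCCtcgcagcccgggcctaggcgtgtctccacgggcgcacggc

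GGGCGG stands within the 250 bases before the start of 24 of the 33 members with a usable start site, 72.7%, and in 32.7% of 32851 promoters of the same length. CCAAT stands in 17 members, 51.5%, against 33.8% of all promoters, and CCGGAAG in 7 members, 21.2%, against 6.91%. The full CRE stands in 2 of the 33, Tra2a and Clk4, and in 1.55% of all promoters. GAANNTTC stands in 4 members, Tra2b among them, outside the stretch printed, and in 6.69% of all promoters. TATAAA stands in 3 members, 9.09%, against 12.4%. Both strands were searched, and overlaps between motifs were counted for each. The members' 250 bases have a median GC content of 62.0% against 52.4% for all promoters. These matches describe letters, not bound sites, and the motifs printed above do not divide the members with high ratios from those with low ones: GGGCGG is present in both Tra2 genes and in Srsf5, Srsf7 and Luc7l3.

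In beta-like cells 35 of the 38 genes were measured, and 1, Tra2b, was past 1.5-fold. Tra2b encodes an SR-like activator of exon inclusion and stood at 98.2 CPM (95.8 to 100.8) in the wild type library and 166 CPM (163 to 169) in the Malat1-null library. The ratio was 1.69 (1.64 to 1.74), which 99.3% of the 3969 genes measured in beta-like cells did not reach. Of those 3969 genes 1.74% were past 1.5-fold higher and 1.81% lower, so that 1 of 35 higher and 0 of 35 lower is a share near that of all genes. The other 34 measured members lay between 0.791 and 1.42 times the wild type level. Over all 35 measured members, 23 intervals lay wholly above 1 and 8 wholly below. Most ratios thus departed from 1 by more than counting error, which is the only error known here. The share of all genes with such intervals was not computed, so these counts do not set the members apart. The median log2 ratio was 0.12 over the 35 members and 0.04 over all genes measured, and 25 ratios of the members were above 1 and 10 below, beside 58.3% of all genes measured above 1.

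**Figure D1:**
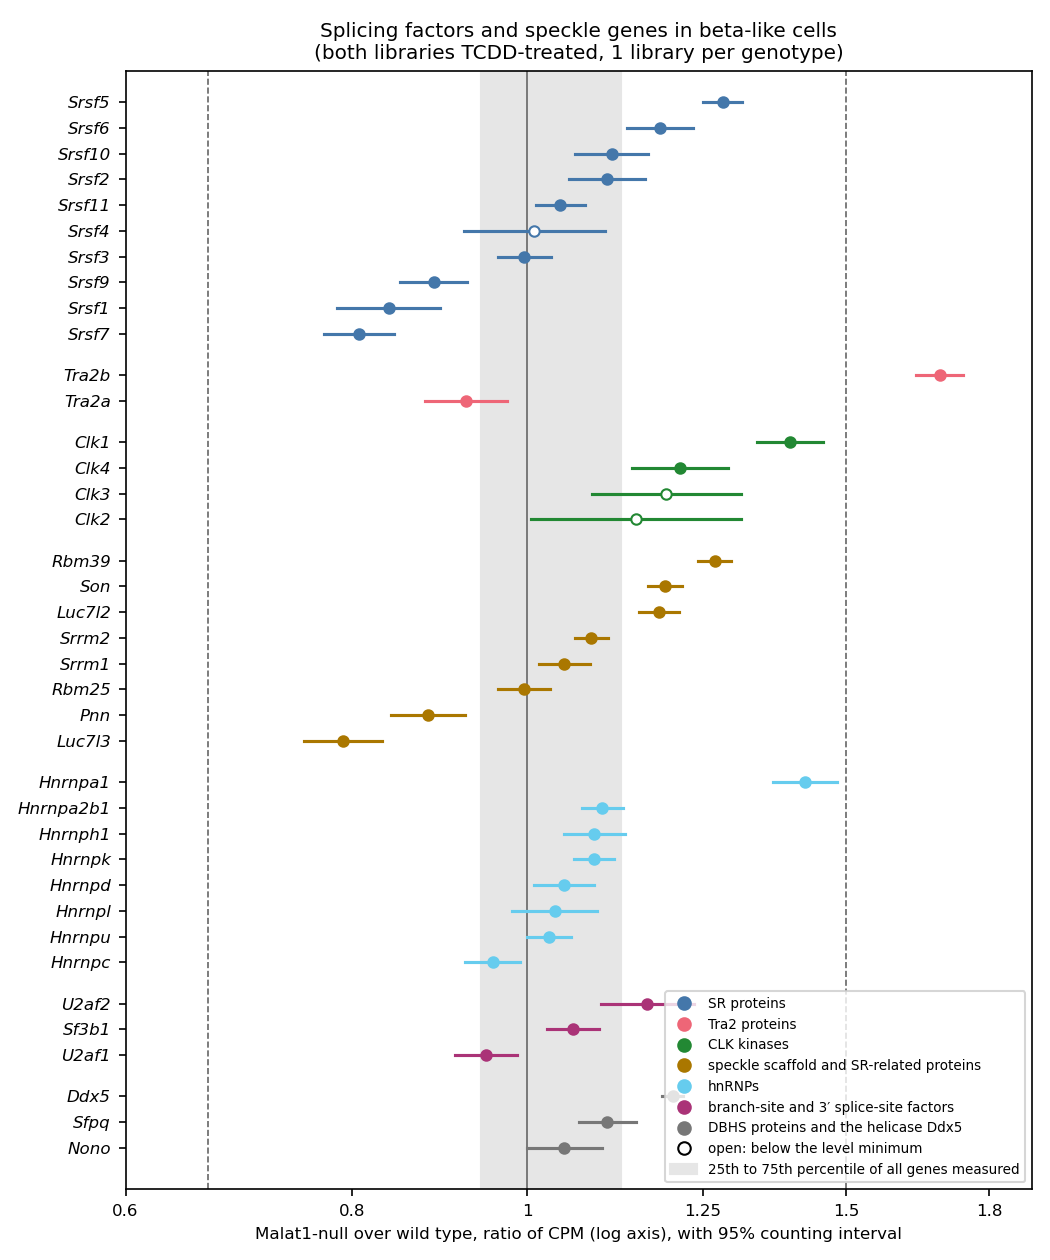
Each point is the ratio of CPM in Malat1-null over wild type beta-like cells for 1 of the 38 members (x axis, log scale), with its 95% counting interval as a bar. Colours give the role, open points are below the level minimum and the grey band runs from the lower to the upper quartile of all genes measured. Tra2b at 1.69 is the point to the right of the dashed line at 1.5, and Hnrnpa1 at 1.42 and Clk1 at 1.40 follow.

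The scaling sets where 1 lies. With counts scaled by total UMIs instead, the median over all genes measured moved from 0.04 to -0.16 and that of the members from 0.12 to -0.07, while the distance between them was 0.08 and 0.09. Under that scaling 11 of the 35 ratios were above 1, beside 20.6% of all genes measured. The ratio of Tra2b was 1.48 and no member was past 1.5-fold, beside 27 of 4008 genes higher and 162 lower. Leaving insulin, other hormone, mitochondrial and Malat1 UMIs out of the total gave a Tra2b ratio of 1.69. Markers of other cell types were not equal in the 2 beta-like sets: the 8 ductal markers summed to 1204 CPM by total count in the wild type and 565 in the Malat1-null set, the 7 acinar markers to 165 and 22.2, and the 5 PP cell markers to 382 and 108. In the wild type set 2 of the 8 ductal markers were at 0, and in the Malat1-null set 1 of the 5 PP markers. Their part in the ratios was not tested, beyond the cluster values given below.

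The SR proteins did not share a direction. Of the 9 measured, 5 were above 1 and 4 below, beside 58.3% of all genes measured above 1. Their median log2 ratio was 0.06, beside 0.04 over all genes. Srsf5 stood at 162 CPM in the wild type library and 208 CPM in the Malat1-null library, a ratio of 1.28 (1.251 to 1.314). Srsf6 stood at 56.6 and 67.0 CPM, a ratio of 1.18. The low end was held by Srsf7 at 60.6 and 48.9 CPM, a ratio of 0.807 (0.773 to 0.844), and Srsf1 at 27.1 and 22.7 CPM, a ratio of 0.838 (0.785 to 0.895). Srsf1 is the founding SR protein and Srsf7 one with a zinc knuckle in its RNA-binding part. Srsf9 followed at 61.8 and 54.9 CPM, a ratio of 0.888. Srsf3, an SR protein also involved in mRNA export, was nearly level at 92.9 and 92.6 CPM. Srsf2, a speckle resident, had a ratio of 1.11, Srsf10 1.11 and Srsf11 1.04. Srsf4 was under the level minimum, at 13.3 and 13.4 CPM.

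The 2 Tra2 genes parted: Tra2a stood at 41.1 and 37.99 CPM, a ratio of 0.925 (0.878 to 0.975), beside the 1.69 of Tra2b. All 4 CLK kinase genes had ratios above 1, although 2 were under the level minimum, beside 58.3% of all genes measured above 1. Clk1 stood at 53.5 and 74.8 CPM, a ratio of 1.40 (1.34 to 1.46), and Clk4 at 26.7 and 32.5 CPM, a ratio of 1.21 (1.14 to 1.29). Clk2, at 5.79 and 6.65 CPM, and Clk3, at 11.3 and 13.4 CPM, had ratios of 1.15 and 1.19 with intervals that begin at 1.00 and 1.09. A list of 7 other kinase genes held Srpk1 and Srpk2 and also the cyclin-dependent kinases Cdk11b, Cdk12 and Cdk13. All 7 were measured and none was past 1.5-fold, beside 1.74% of all genes higher and 1.81% lower. Their median log2 ratio was 0.08, and they ranged from 0.982 for Cdk13 and 1.01 for Srpk1 to 1.09 for Cdk12 and 1.10 for Prpf4b.

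Among the 8 speckle scaffold and SR-related genes 5 ratios were above 1, beside 58.3% of all genes measured. Rbm39, a U2AF-related coactivator, stood at 224 and 285 CPM, a ratio of 1.27 (1.24 to 1.30). The scaffold gene Son stood at 204 and 243 CPM, a ratio of 1.19, and Srrm2, the other core scaffold, at 247 and 268 CPM, a ratio of 1.09. The 2 homologues of a yeast U1 snRNP protein went apart: Luc7l2 stood at 156 and 185 CPM, a ratio of 1.18, while Luc7l3 stood at 47.2 and 37.3 CPM. Its ratio of 0.791 (0.752 to 0.832) was the lowest of the 35. Pnn, which encodes pinin, stood at 50.6 and 44.6 CPM, a ratio of 0.881, and Srrm1 and Rbm25 had ratios of 1.05 and 0.996.

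Of the 8 hnRNP genes 7 were above 1, beside 58.3% of all genes measured. Hnrnpa1, an antagonist of SR proteins at many exons, stood at 57.4 and 81.7 CPM, a ratio of 1.42 (1.37 to 1.48), the second highest of the members. The other 7 lay close together, from 0.957 for Hnrnpc to 1.10 for Hnrnpa2b1. The branch-site and 3′ splice-site factors ranged from 0.949 for U2af1 to 1.17 for U2af2, with Sf3b1 at 1.06. Ddx5, the most abundant member by UMIs, stood at 552 and 664 CPM, a ratio of 1.203 (1.187 to 1.219), with Sfpq at 1.11 and Nono at 1.05.

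Beta-like cells fell into 6 clusters, and the libraries filled them unequally. Clusters 2, 8 and 10 held 346, 220 and 126 of the wild type barcodes, while clusters 1, 2, 3 and 4 held 527, 413, 398 and 296 of the Malat1-null barcodes. Cluster 8 was led by Pdyn, with the ductal marker Spp1 among its 10 leading genes, and cluster 10 by the heat-shock genes Hspa1a and Hspa1b. Clusters 2, 4, 8 and 10 had no beta cell marker among their 10 leading genes. Ratios were therefore also taken cluster by cluster, and the clusters share the 2 libraries, so they are not replicates. Tra2b was higher in the Malat1-null library in each of the 6. Its wild type levels were 90.5, 114, 69.5, 109, 102 and 99.2 CPM in clusters 1, 2, 3, 4, 8 and 10, and its Malat1-null levels 159, 171, 110, 188, 146 and 216 CPM. The ratios were 1.76, 1.49, 1.58, 1.73, 1.43 and 2.17, so that it was past 1.5-fold in clusters 1, 3, 4 and 10 and under it in clusters 2 and 8. Without cluster 8 the pooled ratio of Tra2b was 1.69 and without cluster 10 it was 1.66. Each time 1 member was past 1.5-fold higher and 0 lower, beside 88 and 59 of 3968 genes and 65 and 78 of 3952.

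**Figure D2:**
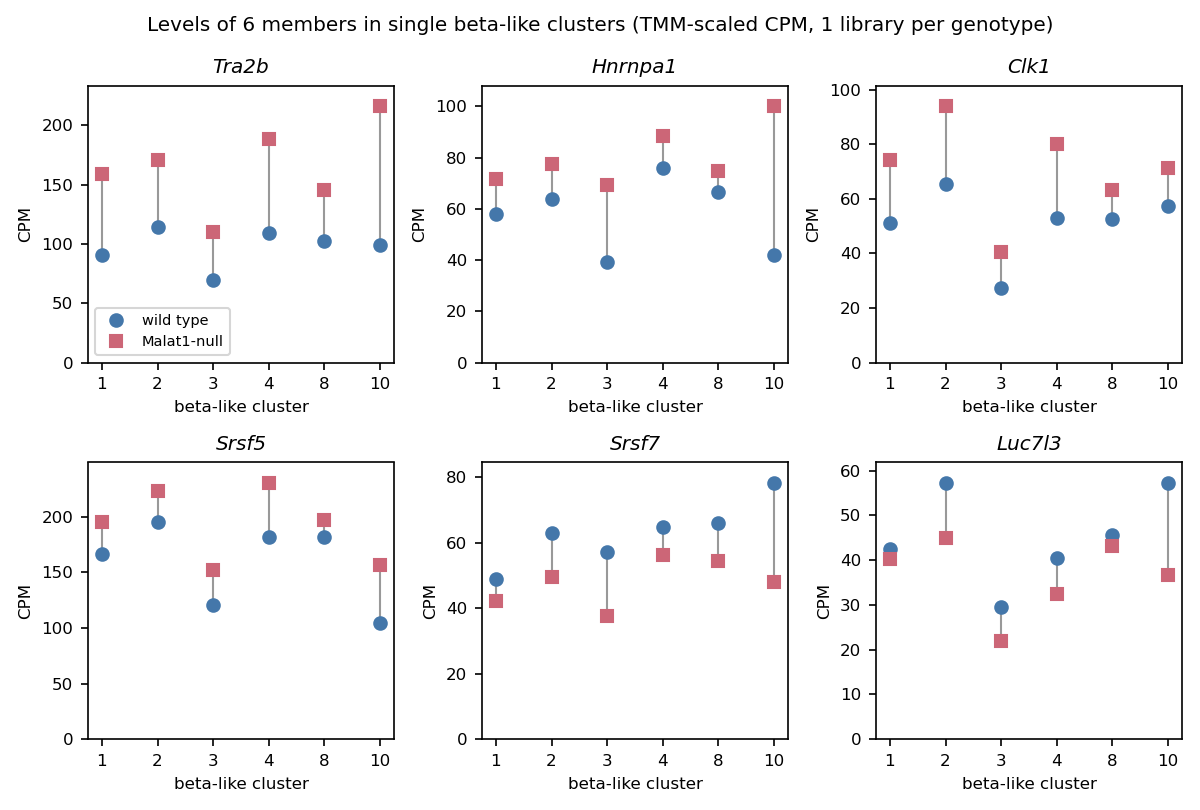
CPM (y axis) of 6 members in the 6 beta-like clusters (x axis); circles are the wild type and squares the Malat1-null library, joined by a grey line within a cluster. The squares of Tra2b, Hnrnpa1, Clk1 and Srsf5 lie above the circles in all 6 clusters and those of Srsf7 and Luc7l3 below, and the ratio is largest for Hnrnpa1 in cluster 10, 42.1 against 99.95 CPM.

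The heat-shock cluster had the most members past 1.5-fold of the beta-like clusters, and also the largest shares of all genes. In cluster 10, of 36 members measured, 5 were past 1.5-fold higher and 2 lower, beside 4.48% and 3.48% of the 4104 genes measured there. Higher were Hnrnpa1 at 2.37 (2.03 to 2.77), Tra2b at 2.17 (1.96 to 2.41), Hnrnpa2b1 at 1.66, Srsf5 at 1.51 and Sfpq at 1.502, and lower were Srsf7 at 0.614 (0.513 to 0.730) and Luc7l3 at 0.639 (0.520 to 0.781). Hnrnpa2b1 lay between 0.959 and 1.04 in the other 5 clusters. Levels were scaled between the libraries within a cluster and not between clusters, so levels of different clusters are not on 1 scale. By these levels wild type cluster 10 had less Hnrnpa1, Hnrnpa2b1 and Sfpq (42.1, 103 and 47.1 CPM) than cluster 2 (63.7, 185 and 99.6 CPM). Hnrnpc and U2af1 went the other way, 147 against 90.8 and 113 against 69.2 CPM. Low levels were not particular to cluster 10: wild type cluster 3 had 39.2, 118 and 39.2 CPM of Hnrnpa1, Hnrnpa2b1 and Sfpq. In the Malat1-null library cluster 10 had more Hnrnpa1 than cluster 2, 99.95 against 77.4 CPM, and less Hnrnpa2b1 and Sfpq, 171 against 186 and 70.8 against 115 CPM.

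In the remaining clusters few members passed 1.5-fold. Cluster 3 had 2 higher, Tra2b and Hnrnpa1 at 1.76, and 1 lower, Srsf7 at 0.657, beside 2.5% and 2.79% of all genes. Cluster 4 had Tra2b and Clk1 at 1.52 higher, beside 3% of all genes, and cluster 1 had Tra2b alone, beside 2.59%; neither had a member lower, beside 2.22% and 1.86%. Clusters 2 and 8 had none, beside 1.31% and 1.78% of all genes higher and 1.74% and 2.72% lower.

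The pooled ratio of some members did not match those within clusters. Srsf1 was at 0.838 over all beta-like cells, but at 0.822 and 0.819 in clusters 1 and 2, 0.912 in cluster 10 and 1.00, 1.10 and 1.14 in clusters 8, 4 and 3. Its mean log2 ratio over the 6 clusters was -0.06, against -0.25 pooled. Tra2a had a mean of 0.01 over clusters against -0.11 pooled, and Srsf9 lay between 0.697 in cluster 10 and 1.01 in cluster 3. Srsf7, from 0.614 to 0.868, had all 6 intervals below 1, and Clk1, Rbm39, Son and Ddx5 had all 6 above. Clk1 ranged from 1.21 to 1.52, Rbm39 from 1.18 to 1.34, Son from 1.10 to 1.43 and Ddx5 from 1.07 to 1.36.

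The other genes of RNA processing in beta-like cells gave no further gene past 1.5-fold apart from the nuclear long RNAs, beside the 1.74% and 1.81% of all genes. The counts above 1 that follow stand beside 58.3% of all genes measured, and the medians beside 0.04. Of 19 genes for Sm, Lsm and other snRNP proteins, the core of the spliceosomal particles, 16 were measured and 5 were above 1, with a median log2 ratio of -0.12. They ran from 0.842 for Lsm3 and 0.847 for Lsm8 to 1.07 for Snrpb and 1.13 for Lsm7. Of 35 spliceosome components 22 were measured and 18 were above 1, with a median of 0.09. Sf3b4, of the same SF3B complex as Sf3b1, stood highest at 16.8 and 23.5 CPM, a ratio of 1.40 (1.30 to 1.51), followed by Sf3b3 at 1.21; Bcas2 at 0.855 and Sf3b5 at 0.864 stood lowest. Of 35 other speckle and paraspeckle genes 29 were measured and 17 were above 1, with a median of 0.03. Nktr at 1.26 and Safb2 at 1.23 stood highest and Sap18 at 0.782 and the paraspeckle RNA Neat1 at 0.731 lowest. Of 32 other hnRNPs and regulators of alternative exons 26 were measured and 16 were above 1, with a median of 0.05, from Hnrnph3 at 0.826 and Mbnl2 at 0.853 to Pcbp1 at 1.17 and Hnrnpdl at 1.24. Under total-count scaling these 4 list medians were -0.31, -0.10, -0.16 and -0.14, beside -0.16 over all genes measured.

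The retained nuclear RNAs lay on both sides of 1. Snhg11, a host gene of small nucleolar RNAs, stood at 46.3 CPM in the wild type library and 21.5 CPM in the Malat1-null library, a ratio of 0.465 (0.438 to 0.492), and was the only one of the 5 measured that was past 1.5-fold. Neat1, the scaffold RNA of paraspeckles and the neighbour of Malat1 in the genome, stood at 118 and 86.4 CPM, a ratio of 0.731 (0.708 to 0.755). Rian at 84.8 and 124 CPM, a ratio of 1.47, and Meg3 at 527 and 670 CPM, a ratio of 1.27, were higher. Within single clusters Snhg11 had ratios from 0.431 in cluster 8 to 0.551 in cluster 2, which it led, and Rian from 1.18 in cluster 8 to 2.05 in cluster 3. Neat1 did not keep its direction: it was at 0.546 in cluster 8, 1.00 in cluster 1 and 1.32 (1.15 to 1.52) in cluster 10.

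Tra2b was not past 1.5-fold in any of the other 6 classes with at least 20 barcodes in each library. Its ratios were 1.26 (1.05 to 1.51) in alpha-like, 1.247 (1.028 to 1.518) in delta-like, 1.17 (1.01 to 1.36) in endothelial-like, 1.15 (1.05 to 1.26) in B-cell-like, 0.953 (0.817 to 1.11) in T- or NK-like and 1.31 (0.839 to 2.02) in acinar-like cells. The upper bounds in alpha-, delta- and acinar-like cells, from 194, 158 and 68 wild type UMIs, do not exclude a ratio past 1.5-fold. Whether the ratio in beta-like cells differs from those in other classes was not tested, since each class has 1 library per genotype. Insulin UMIs in the other classes were unequal between the libraries. They took 0.145% and 0.737% in alpha-like, 0.139% and 0.496% in delta-like, 1.99% and 0.773% in endothelial-like, 0.174% and 2.07% in T- or NK-like, 0.103% and 7.15% in B-cell-like and 2.17% and 18.9% in acinar-like cells (wild type, then Malat1-null), and their part in the ratios was not tested.

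In alpha-like cells, 31 and 66 barcodes, 35 members were measured and none was past 1.5-fold, beside 1.54% of 4597 genes higher and 2.26% lower. Of the 35 ratios 29 were above 1, beside 57.4% of all genes measured, and the median log2 ratio was 0.22 beside 0.07 over all genes. Srsf10, at 74.8 and 117 CPM, had the highest ratio, 1.56 (1.14 to 2.16), and Nono, at 73.5 and 113 CPM, the next, 1.54 (1.12 to 2.14); both intervals begin less than 25% above 1. These cells formed 2 clusters, 1 with 27 wild type and 4 Malat1-null barcodes and 1 with 4 and 62, so cluster and library cannot be told apart there. In delta-like cells, 24 and 43 barcodes, none of 35 was past 1.5-fold, beside 1.48% higher and 1.18% lower, with a median of 0.06 beside 0.03. Sf3b1 stood highest at 1.47 (1.16 to 1.88), and Rbm25 lowest at 0.784 (0.628 to 0.981). In these delta-like cells the 6 alpha cell markers summed to 46.3 CPM by total count in the wild type and 6243 in the Malat1-null library, with 2 and 0 of the 6 at 0, and the 7 acinar markers to 763 and 21.25, with 0 and 1 of the 7 at 0; their part in the ratios was not tested.

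Endothelial-like cells, 87 and 38 barcodes, leaned the other way. Of 37 members measured 4 had a ratio above 1 and 33 below, beside 46.8% of all genes measured above 1. Of the members' intervals 13 lay wholly below 1 and 2 wholly above, and the share over all genes was not computed. The median log2 ratio was -0.22 beside -0.03 over all genes. Past 1.5-fold lower were 3, beside 4.71% of 5669 genes, and higher 0, beside 4.09%. Pnn stood at 154 CPM in the wild type library and 81.5 CPM in the Malat1-null library, a ratio of 0.529 (0.384 to 0.718). Srsf10 stood at 191 and 118 CPM, a ratio of 0.618 (0.473 to 0.799), and Luc7l2 at 250 and 158 CPM, a ratio of 0.632 (0.503 to 0.790). Srsf2, at 306 and 415 CPM, was the highest at 1.35 (1.16 to 1.58). Only Pnn was past 1.5-fold when barcodes with at least 5000 UMIs were kept, 81 and 34, beside 262 of 5638 genes lower and 227 higher. The 7 B-cell markers summed to 2.85 CPM by total count in the wild type and 1630 in the Malat1-null endothelial-like cells, with 5 and 1 of the 7 at 0; their part in these ratios was not tested.

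**Figure D3:**
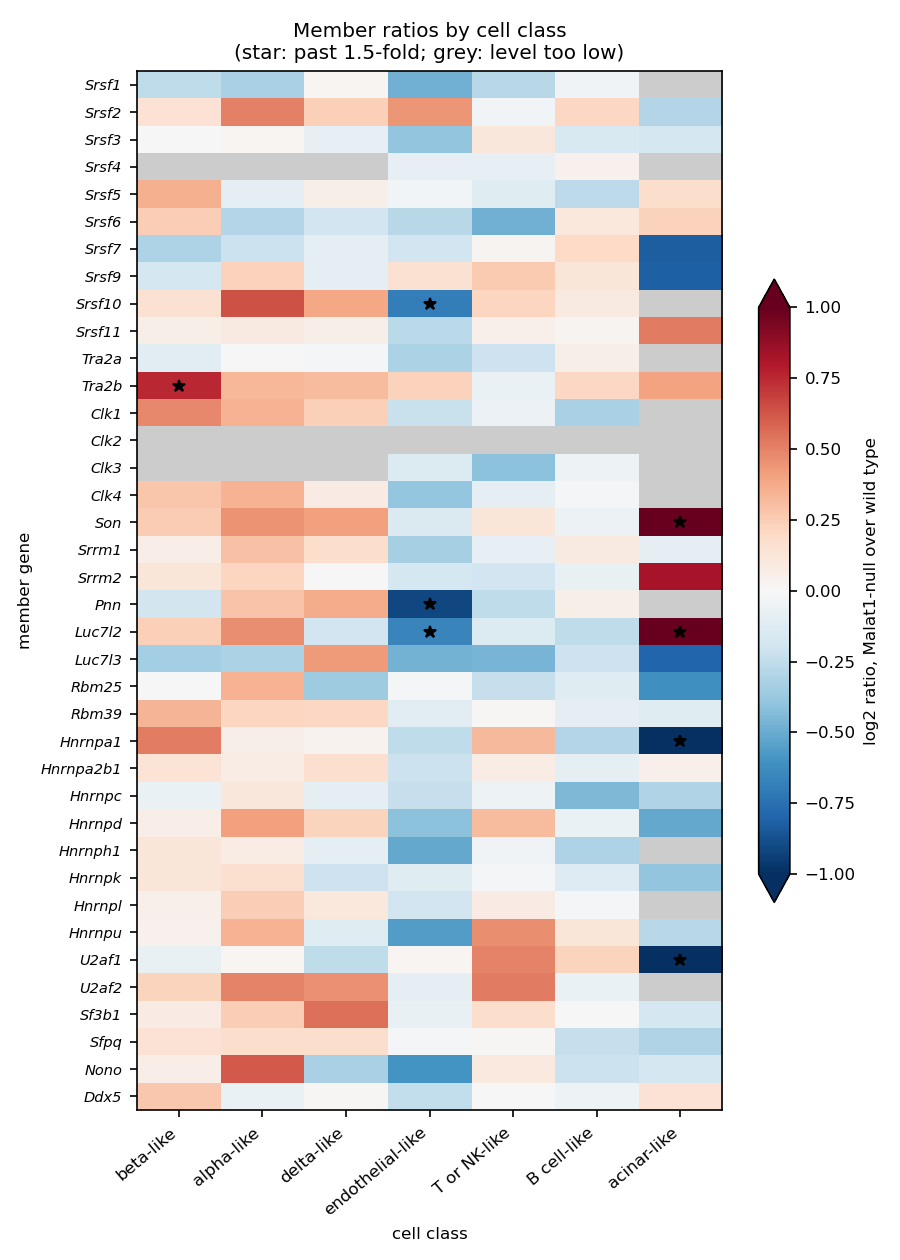
The log2 ratio, Malat1-null over wild type, of the 38 members (rows) in the 7 classes compared (columns), red for higher and blue for lower in the Malat1-null library, grey where the level was too low. Stars mark members past 1.5-fold: 1 in beta-like, 3 in endothelial-like and 4 in acinar-like cells.

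Lymphocyte-like cells had medians close to 0. In T- or NK-like cells, 295 and 158 barcodes, none of 37 members was past 1.5-fold, beside 2.19% higher and 2.44% lower of 5160 genes, and the median was -0.01 beside -0.01. U2af2 stood highest at 1.43 (1.09 to 1.87), U2af1 followed at 1.41 (1.16 to 1.71) and Hnrnpu at 1.38 (1.18 to 1.60), and Srsf6 stood lowest at 0.712 (0.510 to 0.977). With 5000 UMIs as the minimum, Hnrnpa1, Hnrnpu and U2af1 were past 1.5-fold higher, beside 203 of 3854 genes. In B-cell-like cells, 195 and 307 barcodes, none of 37 was past 1.5-fold although 7.28% of 5069 genes were higher and 7.12% lower, and the median was -0.05 beside -0.02. Hnrnpc stood lowest at 0.732 (0.651 to 0.823) and U2af1 highest at 1.17 (1.03 to 1.32). Taken alone, the B-cell-like cluster led by the immunoglobulin genes Igkc and Jchain had Hnrnpc at 0.658 past 1.5-fold lower, beside 10.7% of all genes, and the other had Luc7l3 at 0.552, beside 2.16%; this split was chosen after seeing the data.

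The acinar-like class gave values that depend on the scaling. It held 274 and 49 barcodes with a median of 1619 and 1695 UMIs, and 26 members were measured. The median log2 ratio was -0.175 over these members and -0.49 over all genes measured. Past 1.5-fold higher were 2, Son at 2.50 (1.66 to 3.76) and Luc7l2 at 2.24 (1.32 to 3.78), beside 3.91% of 1788 genes, and lower 2, Hnrnpa1 at 0.471 (0.303 to 0.706) and U2af1 at 0.479 (0.282 to 0.775), beside 24%. Son rests on 53 and 49 UMIs and Luc7l2 on 35 and 29. Under total-count scaling 8 members were higher and 0 lower, beside 281 and 45 of the 1788 genes. With hormone, mitochondrial and Malat1 UMIs left out the counts were 11 and 0, beside 511 and 26 of those genes. Hnrnpa1 and U2af1 thus lost their call and Son and Luc7l2 kept it. The median log2 ratio of the members stayed 0.31 above that of all genes under TMM and both other scalings.

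Levels were also set on 1 scale across classes, with the beta-like pool as the reference and TMM factors between pools. B-cell-like cells had 32 of the 35 members measured in both classes above beta-like cells, with intervals apart in both libraries, beside 30.3% of all 3110 genes. T- or NK-like cells had 24, beside 23.5%, alpha-like 17, beside 11.8%, endothelial-like 14, beside 21.2%, delta-like 5, beside 6.61%, and acinar-like 1 of 26, beside 31%. Below beta-like cells were 0 members in B-cell-like, 2 in T- or NK-like, 1 in alpha-like, 2 in endothelial-like, 0 in delta-like and 5 in acinar-like cells, beside 33.7%, 37.5%, 18%, 35%, 16.7% and 5.52% of all genes. The median over members of the log2 level relative to beta-like cells was 0.67 in B-cell-like and 0.56 in T- or NK-like cells, where the medians over all genes were -0.07 and -0.25.

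**Figure D4:**
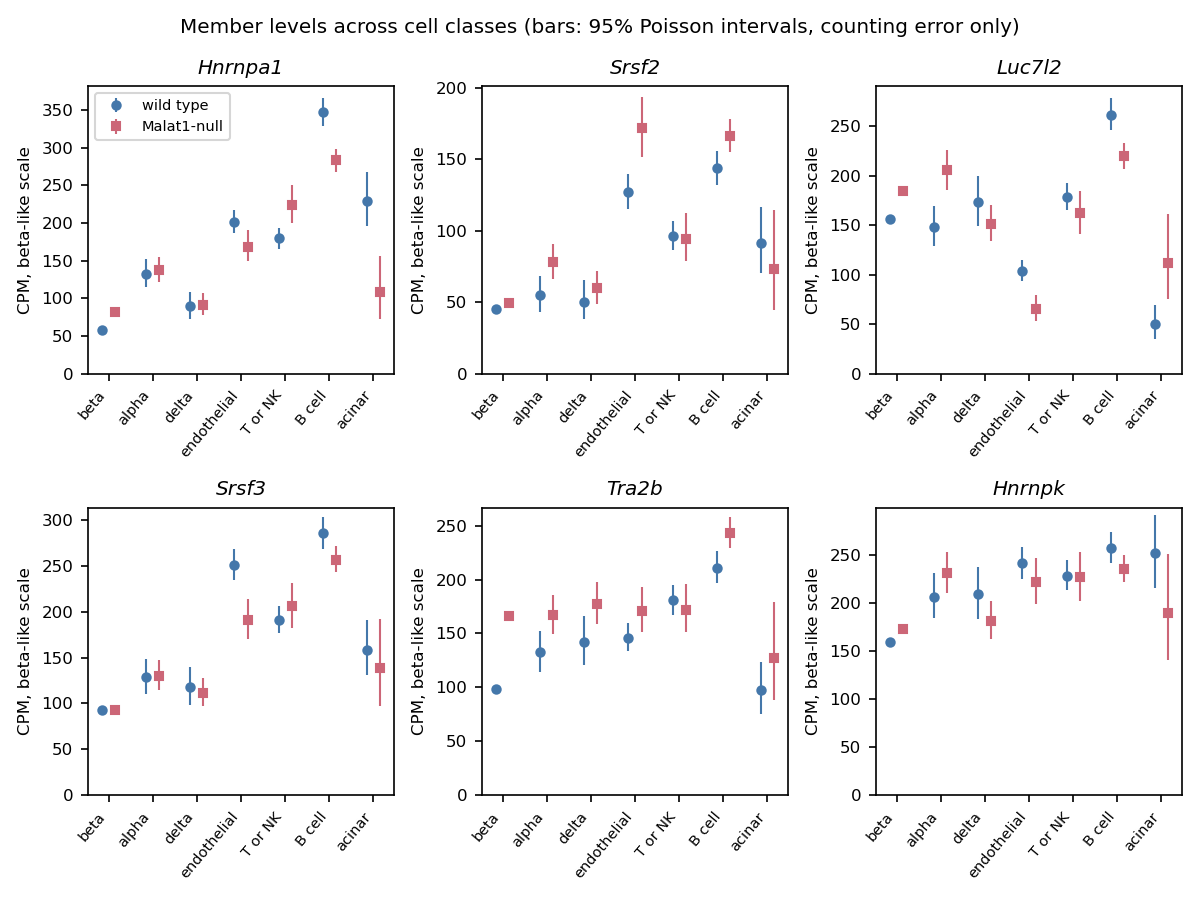
Level of 6 members on the beta-like CPM scale (y axis) in the 7 classes (x axis), circles for wild type and squares for Malat1-null, with 95% Poisson intervals as bars. Hnrnpa1 runs from 57.4 CPM in wild type beta-like to 347 CPM in wild type B-cell-like cells, while Hnrnpk stays between 159 and 257 CPM.

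Hnrnpa1 had the widest range among members with enough UMIs in every class, 4.58-fold between B-cell-like and beta-like cells. On this scale its levels in wild type and Malat1-null cells were 57.4 and 81.7 CPM in beta-like, 89.1 and 91.4 in delta-like, 133 and 138 in alpha-like, 180 and 224 in T- or NK-like, 201 and 169 in endothelial-like and 347 and 283 in B-cell-like cells. Delta- and beta-like cells did not have separate intervals in the Malat1-null library, and T- or NK- and endothelial-like cells changed places between the libraries. Srsf2 came next with 3.27-fold, from 44.9 and 49.7 CPM in beta-like cells to 144 and 166 in B-cell-like cells, and its endothelial-like levels, 127 and 172, overlapped those of B-cell-like cells. Srsf3 ranged 2.92-fold between the same classes, from 92.9 and 92.6 CPM to 286 and 257.

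The speckle genes had other extremes. Luc7l2 ranged 2.91-fold between B-cell-like cells, 262 and 219 CPM, and endothelial-like cells, 104 and 65.6 CPM, and 3.20-fold when acinar-like cells are counted. Srrm2 was highest in T- or NK-like cells, 432 and 377 CPM, and its 2.72-fold range ends in acinar-like cells, without which it was 1.73-fold. Sf3b1 likewise was highest in T- or NK-like cells, 190 and 215 CPM, against 97.6 and 103 in beta-like cells. The narrowest ranges were those of Hnrnpk at 1.48-fold, Hnrnpu at 1.52-fold and Nono at 1.63-fold. The order of the classes depends on the scale: by total-count CPM acinar-like cells were the lowest for all of these but Hnrnpa1, whose lowest class was again beta-like. The highest class moved too, to endothelial-like cells for Srsf2, Srsf3, Hnrnpk and Hnrnpu and to T- or NK-like cells for Luc7l2 and Nono. Hnrnpa1 stayed highest in B-cell-like cells, and Srrm2 and Sf3b1 in T- or NK-like cells.

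The place of Tra2b among the endocrine classes differed between the libraries. In the wild type library its level was 98.2 CPM in beta-like cells, below 133 (115 to 153) in alpha-like and 142 (121 to 166) in delta-like cells. In the Malat1-null library the levels were 166, 167 (150 to 186) and 177 (159 to 198) CPM, which overlap. Clk1 was at 53.5 CPM in wild type beta-like cells, 67.5 in delta-like and 91.6 in alpha-like cells. In the Malat1-null library Clk1 was at 74.8, 79.9 and 117 CPM in the same order, so that the alpha-like level stayed apart from the beta-like level and the delta-like level overlapped it, as in the wild type library.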

How the data were processed

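The matrices hold whole-number UMI counts per gene and barcode, as deposited by the authors; the file headers name Cell Ranger major version 4, while the submitters' processing notes name Cell Ranger 2.1.0 and build mm10. The deposited counts were not normalized. From them, barcodes with at least 1000 UMIs were kept (median 26116 in the wild type and 34038 in the Malat1-null library), doublet calls were removed (1.06% and 0.219%), and both libraries were clustered together (scanpy 1.11.5, 2000 variable genes without the 38 members, Malat1, sex-linked and mitochondrial genes, 30 components, Leiden resolution 1). Clusters were named from fixed marker lists; clusters with insulin beside another hormone or class, low UMIs, a low score, 2 classes scoring alike or leading genes of another class stayed unnamed, 115 and 563 barcodes, and those naming limits were chosen with an earlier clustering in view. Another clustering could move barcodes between classes. UMIs were summed per class and library and scaled with TMM (edgeR 4.0.16). Genes were named by rank: members past 1.5-fold, the 5 highest and 5 lowest in beta-like cells, and the extremes of the other lists and classes. The members and lists were chosen with earlier results of these data known. With 1 library per genotype no p-value was computed. The rule was run on simulated counts: in beta-like cells 50 of 50 genes changed 2-fold were called and 0 of 3793 unchanged genes, and in delta-like cells 39 of 50 (20 of 29 measured genes at 0.5-fold) and 7 of 3636. Those counts carried counting error alone, with no spread between animals or libraries and no TMM step. They therefore do not tell how often the rule calls unchanged genes between real libraries. Promoter starts were matched to GENCODE M21 within 50 bases.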

Additional observations from a re-analysis of the deposited data

Results flagged for a closer look

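Acinar-like cells left out, 6 members had a ratio over 25% above 1 in 1 class and one as far below 1 in another. The distance below 1 was taken on the log scale, and each interval excluded 1. How many of all genes meet this rule was not counted, so it does not set the members apart. These differences between classes were not tested, since each class has 1 library per genotype. Srsf10 was at 1.56 in alpha-like and 0.618 in endothelial-like cells. Luc7l2 was at 1.38 in alpha-like and 0.632 in endothelial-like cells. Hnrnpd was at 1.33 in alpha-like and 0.752 in endothelial-like cells, and Nono at 1.54 and 0.655. Hnrnpu was at 1.38 in T- or NK-like and 0.677 in endothelial-like cells. Rbm25 was at 1.27 in alpha-like and 0.784 in delta-like cells. The endothelial-like values are those of a class with 87 wild type and 38 Malat1-null barcodes, and the alpha-like values of one with 31 and 66.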

How the results depend on the processing

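No paired analysis was possible because each group has 1 library and the numbers in the labels only name the samples. In beta-like cells the log2 ratio of Tra2b stayed above 0 in all 23 alternatives, from 0.51 to 1.12, and Tra2b stayed past 1.5-fold in 20 of them; its log2 ratio was 0.57 under total-count scaling, 0.58 in cluster 2 alone and 0.51 in cluster 8 alone. The number of members past 1.5-fold higher was 0 under total-count scaling and in clusters 2 and 8 alone, 2 in clusters 3 and 4 alone and 5 in cluster 10 alone, and the number lower was 1 in cluster 3 and 2 in cluster 10. The beta-like median was -0.072 under total-count scaling, beside -0.16 over all genes. The sign of Srsf1 changed in 3 alternatives and that of Srsf9 in 1; the other 8 members named for their beta-like ratio kept theirs in all 23, although Pnn had a ratio of 1.00 in cluster 1 alone. Total-count scaling also gave alpha-like cells 3 members higher, beside 168 of 4597 genes, and a median of 0.36 beside 0.21 over all genes. The B-cell-like median was -0.15, beside -0.13 over all genes. Total-count scaling gave acinar-like cells 8 higher and 0 lower, beside 281 and 45 of 1788 genes. The acinar-like median was 0.66, beside 0.35 over all genes. Scaling without hormone, mitochondrial and Malat1 UMIs gave acinar-like cells 11 higher and 0 lower, beside 511 and 26 of those genes. The median was then 0.98, beside 0.67 over all genes. Under total-count scaling the beta-like list medians were -0.11 for the 7 other kinases, -0.31 for Sm, Lsm and snRNP proteins and -0.10 for spliceosome components. They were -0.16 for other speckle genes and -0.14 for other hnRNPs, beside -0.16 over all genes. In these lists 1 other speckle gene and 2 nuclear long RNAs were lower, beside 162 of 4008 genes, and Neat1 stands in both lists. A minimum of 5000 UMIs left 1 member lower in endothelial-like cells, beside 262 of 5638 genes. It left 3 higher in T- or NK-like cells, beside 203 of 3854 genes, and 1 higher in acinar-like cells, beside 54 of 1536. With that minimum the B-cell-like median was -0.11, beside -0.05 over all genes. In single clusters, chosen after seeing the data, the T- or NK-like medians were 0.10 (cluster 6) and -0.12 (cluster 12), beside 0.01 and 0.001 over all genes. In each B-cell-like cluster (18 and 15) 1 member was lower. Of the other values that answer a comparison, 120 stayed within the spread allowed. The cause of each change was not tested. Protein sequence features were not run. In simulated counts of the delta-like class 39 of 50 genes changed 2-fold were called and 20 of 29 measured genes at 0.5-fold, so depth limits the small classes.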
